A study of Homo sapiens with 7 samples.

Results

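The most 3’ exon bins of genes were examined in MEG-01 cells with and without knockdown of RBM15. MEG-01 is an established cell line of human megakaryoblastic leukemia. An exon bin is a stretch of exon whose set of transcripts does not change along its length, and reads were counted per bin. In each gene with at least 5 bins of at least 30 reads, summed over the 3 RNA-seq libraries, the bin nearest to the 3’ end of the gene among those bins was taken. This gave 10213 bins, 1 per gene, out of 625148 bins in all. Another 91 genes met the read limits but had no strand in the annotation and were left out. The choice used the summed reads and the position of a bin, and not the difference between the libraries.

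The RNA-seq comprised 1 library of control cells, 1 of cells with shRBM15#1 and 1 of cells with shRBM15#2, which are short hairpin RNAs against RBM15. All 3 were MEG-01 cells at passage 5 that carried lentiviral transgenes and were harvested in exponential growth, and the vector of the control cells was not stated. The stable knockdown lines were made by puromycin selection. The study asked how RBM15, an RNA-binding protein of the SPEN family that takes part in megakaryocyte differentiation, affects the use of exons. The reads were not strand-specific. Where 3 values are listed below without names, their order is control, shRBM15#1, shRBM15#2.

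The 3’ end of most mRNAs forms by cleavage and addition of a poly(A) tail. The cleavage and polyadenylation factors recognize a hexamer a short distance upstream of the cut, most often AATAAA or its variant ATTAAA in the letters of DNA. Many genes have several such signals. Tandem signals within the last exon give longer or shorter 3’UTRs, whereas signals in different last exons also change the end of the protein. In a gene with tandem signals, the most 3’ bin holds only the part of the 3’UTR that the longest transcripts carry.

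The ends of most of these bins held such a signal. Among the 9011 bins of at least 50 bases, AATAAA stood in the last 50 bases of 57.6%, on the strand of the transcript, ATTAAA in 17.3%, and either of them in 71.4%. In the other tested bins of the same genes with at least 50 bases, 5.72% of 157869 held either hexamer in that window. The sequences around the hexamer are shown for some of the bins that passed the adjusted limit described below and for genes of RNA processing described later. They are 5’ to 3’ on the transcript strand, from GRCh37, with the hexamer in capitals.
MPRIP, chr17:17095924-17095953, plus strand: aaactatatcatAATAAActatttttgcat
MYO1E, chr15:59427116-59427145, minus strand: ctttttttcctaATTAAAaagtcttcagaa
DEF8, chr16:90034438-90034467, plus strand: tgtcactgtctcATTAAAtatacatccttt
HOMER2, chr15:83509845-83509874, minus strand: tattacttgtatAATAAAaataagagcttt
RNF130, chr5:179338658-179338687, minus strand: tataaccatttcAATAAAaacctattgaaa
CPSF6, chr12:69668104-69668133, plus strand: tcttgtattgaaAATAAAacaaacttttga
ELAVL1, chr19:8023464-8023493, minus strand: tgatattttggtAATAAAtgaagtgggatc
HNRNPR, chr1:23630264-23630293, minus strand: ttgtttcaaggtAATAAAgagtaaacagta
SRSF1, chr17:56080725-56080754, minus strand: atgtgttagcaaATTAAAagttcttaaaag
In these 9 sequences the hexamer was ATTAAA in MYO1E, DEF8 and SRSF1 and AATAAA in the others. The match to a hexamer describes the sequence, and the cleavage sites were not mapped here.

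The bins were mostly 3’UTR. Of the 10213, 6766 held only 3’UTR in the annotation, 2655 held 3’UTR and coding sequence, 124 held only coding sequence and 668 held neither. Their 3’ edge was within 10 bases of an annotated transcript end in 8478. In 7795 genes the bin was contiguous with the bin upstream of it, as in the extension of an exon, and in 2418 genes a gap separated them, as for an exon of its own. In 5329 genes it was also the last of all annotated bins, whereas in 4884 genes bins with fewer than 30 reads lay further 3’. The median length was 616 bases, from 1 to 17959, and the median summed count was 257 reads, from 30 to 157360. In total, 1009 overlapped a bin of another gene, and since the reads carry no strand, reads of overlapping genes could not be told apart there.

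The libraries held 41629454 to 53230029 reads on bins. Reads in no bin made up 21.6%, 30.4% and 21.9% of all reads. RBM15 itself had 3970, 1957 and 2121 reads. Scaled to library size (CPM), these are 80.2, 43.7 and 40.7, and RBM15 was lower in both lines with a log2 fold change of −0.93 (SE 0.23) and an adjusted p of 0.091 in edgeR. The megakaryocyte marker ITGA2B, an integrin subunit, was at 919, 476 and 607 CPM, and it made up most of the summed level of the 9 megakaryocyte markers with at least 30 reads, which was 970, 617 and 811 CPM. Some other markers were higher in both lines, with THBS1 at 28.5, 105 and 61.2 CPM and ITGB3 at 6.28, 17.9 and 51.8 CPM. PPBP, at 2.38, 6.12 and 56.9 CPM, and VWF and GP5, at low levels, were also higher in both. GP1BA was lower in both, at 4.75, 3.37 and 3.72 CPM. SELP, at 9.17, 6.48 and 28.8 CPM, and TREML1, at 0.202, 0.469 and 0.153 CPM, differed in direction between the lines. The median log2 fold change of the 9 was 1.54, and 0 of them passed an adjusted p under 0.05 in edgeR, while 6 had an unadjusted p under 0.05. PF4 and GP9, which mark mature megakaryocytes, had fewer than 30 reads. Erythroid genes moved with the knockdown. The summed level of the 13 erythroid markers with at least 30 reads was 1278, 7663 and 7340 CPM, and 8 of them rose at an adjusted p under 0.05. The part of this shift in the values that follow was not tested.

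The share of a gene’s reads that fell on its most 3’ bin was slightly smaller after knockdown. The median share was 7.26%, 6.94% and 6.98%. Per base of length, the most 3’ bin held a median of 0.694 times the read density of its gene in the control, 0.666 times in the line with shRBM15#1 and 0.672 times in the other. The median log2 ratio of the share to the control was −0.034 with shRBM15#1 and −0.032 with shRBM15#2, against 0.003 and 0.004 over all 234192 bins tested. Both comparisons share the 1 control library. An exact permutation test of 1 control against 2 lines cannot go below p = 0.333, and the shift of the median is given as a description.

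The reads of the bin relative to its gene were then tested with edgeR over all 234192 bins of at least 30 reads whose gene held 2 or more of them. A bin was called if its unadjusted p was under 0.05 and its fold exceeded 1.2. The SE given with a change can be too small for its p-value, as described with the processing below. The spread comes from the 2 knockdown lines, which are separate lines, and nothing shows how far a second control would differ. At these limits 1.45% of all bins were called, 0.787% as lower and 0.662% as higher. Of the most 3’ bins, 315 were called (3.08%), of which 228 fell (2.23%) and 87 rose (0.852%). The called bins were thus 72.4% lower, compared with 54.3% over all bins. With a DEXSeq-type model in DESeq2, 862 were called, of which 623 fell and 239 rose, where 2.13% of all bins fell and 2.07% rose. At an adjusted p under 0.05 in edgeR, which 0.0205% of all bins passed, 9 fell and 1 rose.

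**Figure D1:**
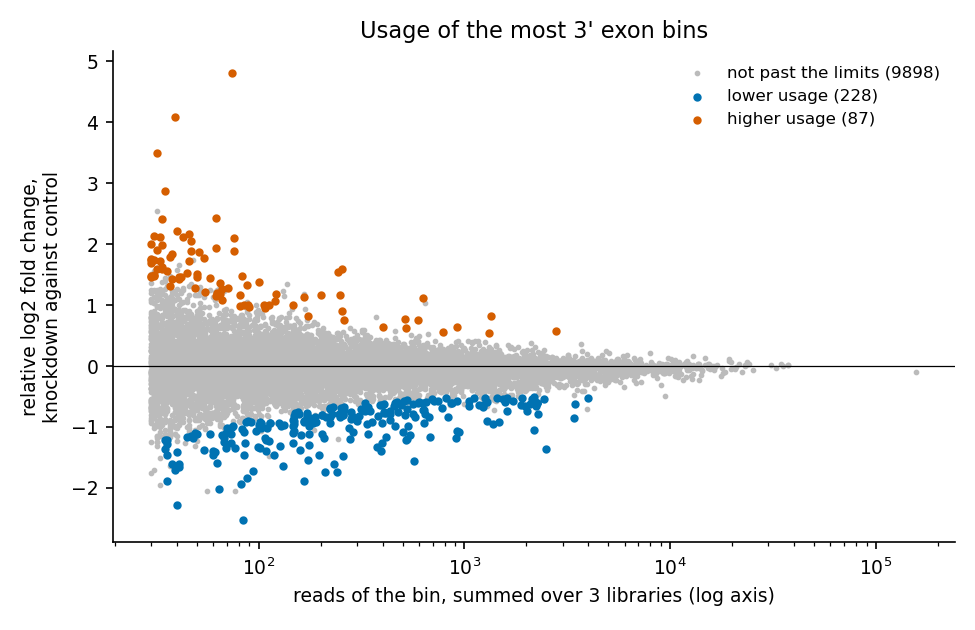
Relative log2 fold change of the most 3’ bins, knockdown against control, against their reads summed over 3 libraries on a log axis, with 1 point per bin. Blue points are the 228 bins that fell, orange points the 87 that rose, and grey points the 9898 others. The orange points lie mostly at few reads, and nearly all called points at 1000 or more reads are blue.

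Calls were also counted at other positions in the same genes. In the bin next upstream of the most 3’ bin, 92 of 10213 bins fell (0.901%) and 46 rose (0.450%), and in the bin before it 74 fell (0.725%) and 40 rose (0.392%). Of the most 5’ bins of these genes 133 fell (1.30%) and 205 rose (2.01%), so that more rose than fell there. The number of reads differs between these positions, with a median of 257 at the 3’ end and 63 at the 5’ end. The differences between positions were not tested.

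**Figure D2:**
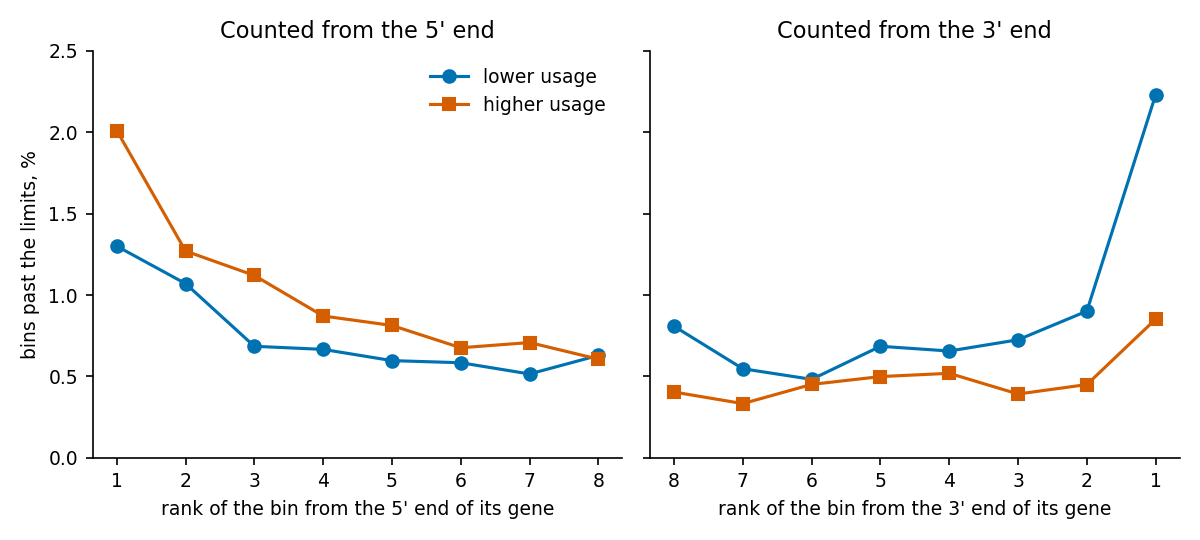
Percentage of tested bins called lower (blue circles) or higher (orange squares) after knockdown, by the rank of the bin from the 5’ end (left) and from the 3’ end (right) of its gene. Ranks 1 to 5 hold 10213 bins each, and the lower calls reach 2.23% at the most 3’ bin.

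Lower and higher calls were then split by the reads of the bin. Between 30 and 99 reads 48 bins fell and 62 rose (3.63% called), and at this depth 2.31% of all bins were called. From 100 to under 300 reads 78 fell and 15 rose (3.88%, against 1.3% of all bins of that depth). From 300 to under 1000 reads 65 fell and 7 rose (2.88%, against 0.936%), and from 1000 reads 37 fell and 3 rose. In order of depth, 43.6%, 83.9%, 90.3% and 92.5% of the called most 3’ bins were lower. Over all bins these shares were 50.3%, 57.2%, 58% and 66.9%, so they rose with depth there too. More bins rose than fell in the class with the fewest reads, and fewer in the other 3 classes. In the last class 1.75% of the most 3’ bins and 0.600% of all bins were called. The minimum of 30 reads is a sum over 1 control and 2 knockdown libraries, so that a bin near it can pass on its knockdown reads, and 38 of the 87 bins that rose had fewer than 10 reads in the control.

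Calls were next split by the properties of the bin, in classes whose differences were not tested. With all bins divided into 5 classes of length, in the class up to 145 bases 30 of 2043 bins fell (1.47%) and 16 rose (0.783%). In the class from 1932 bases 73 of 2043 fell (3.57%) and 21 rose (1.03%). The median reads of these classes were 71 and 1009, so length and depth cannot be told apart here. Of the bins with only 3’UTR 184 fell (2.72%) and 50 rose (0.739%), whereas of those with 3’UTR and coding sequence 19 fell (0.716%) and 17 rose (0.640%). Bins contiguous with their upstream bin fell in 185 of 7795 genes (2.37%) and rose in 52 (0.667%), while bins behind a gap fell in 43 of 2418 (1.78%) and rose in 35 (1.45%). With 5 classes of GC content, from lowest to highest, 0.930%, 2.06%, 1.96%, 3.43% and 2.79% of the bins fell. In the same order, 0.489%, 0.441%, 1.08%, 1.37% and 0.881% rose.

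**Figure D3:**
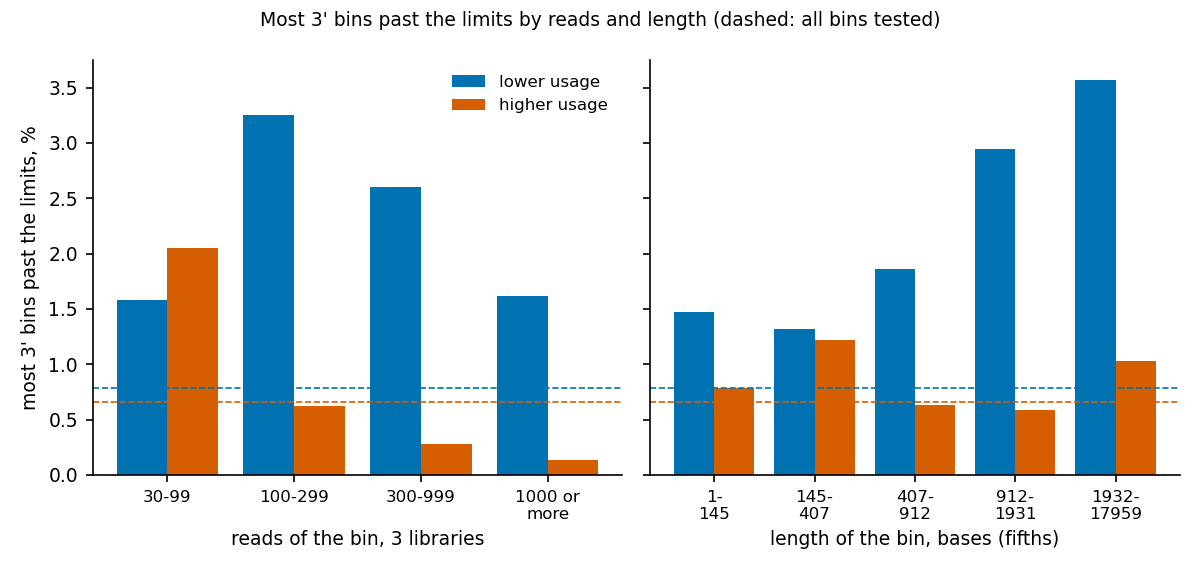
Percentage of most 3’ bins called lower (blue) or higher (orange) after knockdown, by the reads of the bin in 3 libraries (left) and by its length in 5 classes of equal size (right). Dashed lines give the percentages over all bins tested, 0.787% lower and 0.662% higher.

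Bins with many reads were also compared line by line without a model. Among the 2283 most 3’ bins with at least 1000 reads, the share was over 1.2-fold lower with shRBM15#1 than in the control in 224 (9.81%) and over 1.2-fold higher in 32 (1.40%). With shRBM15#2 it was lower in 200 (8.76%) and higher in 33 (1.45%) by that fold, against the same control. Over all 26681 bins of that depth, 2.39% were lower and 1.80% higher with shRBM15#1, and 2.40% and 1.94% with shRBM15#2. Between the knockdown lines, 16 most 3’ bins were lower and 38 higher by that fold in shRBM15#2 (0.701% and 1.66%), against 0.528% and 0.810% of all bins. These counts are descriptions with no test. Most deep bins moved little, with a median absolute log2 ratio of 0.081 against the control in each line and of 0.059 between the lines.

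The bins that fell and those that rose are described beside the 9898 that were not called. Those that fell were 228 bins with a median length of 1218 bases and a median of 256 reads. Their median share was 5.07%, 2.44% and 2.58%. Of their genes 126 were higher and 102 lower after knockdown, with a median log2 fold change of the gene of 0.03. The level of the bin itself in CPM was lower in 215 of 228. The share was lower in both lines in all 228, and higher in both in all 87 that rose. Both lines are set against the same control, so their agreement in a called bin is not separate support. The 87 that rose had a median of 62 reads and a median length of 484 bases, and their median share was 0.623%, 1.76% and 1.69%. In 68 of these 87 genes the gene total was lower after knockdown, with a median log2 fold change of −0.34. Among the bins not called this was so in 6266 of 9898 genes, with a median of −0.15. Calls over all bins tested went with the gene total in the same way. In genes whose total fell by over 0.5 on the log2 scale, 206 bins fell and 499 rose. In genes whose total rose by over 0.5, 210 bins fell and 65 rose. Of the 87 most 3’ bins that rose, the CPM of the bin itself was higher in 84. Of those that rose 40.2% lay behind a gap, as did 18.9% of those that fell and 23.6% of those not called, and these differences were not tested. Among called bins of at least 50 bases, 67.7% of 217 that fell and 44.7% of 76 that rose held AATAAA or ATTAAA in their last 50 bases.

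Where the bin is contiguous with its upstream bin, the ratio of their reads compares 2 parts of 1 exon. Over 7162 such pairs the median log2 change of this ratio was −0.020 with shRBM15#1 and −0.028 with shRBM15#2. In the 172 pairs whose most 3’ bin fell, it was −0.61 and −0.53, and it was lower in both lines in 137. In the 40 pairs whose most 3’ bin rose, it was 0.81 and 0.84, and it was higher in both lines in 35. Since the call used the reads of the same bin, the pairs chosen by it are a description.

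The smallest adjusted p belonged to MPRIP, which encodes a protein that binds myosin phosphatase and RhoA. Its bin 064 (ENSG00000133030, chr17:17092815-17095962, 3’UTR) had 348, 106 and 114 reads. Its share of the gene’s reads was 6.55%, 2.33% and 2.11%. Both lines were below the control and close to each other, while the gene total was 5314, 4558 and 5406 reads. The relative log2 fold change was −1.56 (SE 0.22, edgeR adjusted p = 0.000544). Here 12 bases follow the hexamer in the sequence shown above, and the bin ends 21 bases after it.

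MYO1E, an unconventional myosin, had the lowest relative fold change of all the most 3’ bins. Its bin 001 (ENSG00000157483, chr15:59427113-59428564, 3’UTR) had 44, 26 and 14 reads, or 7.75%, 2.03% and 0.786% of the gene. The gene total was higher in both lines, at 568, 1279 and 1781 reads. The relative log2 fold change of −2.53 (SE 0.36, edgeR adjusted p = 0.0012) was therefore larger than the drop of the bin’s own level, which was −0.84 on the log2 scale of CPM. The lines differed by more than in MPRIP, with shRBM15#2 lowest.

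HOMER2, a scaffold protein, and MXD4, a repressor that pairs with MAX, fell by similar factors. The HOMER2 bin 001 (ENSG00000103942, chr15:83509838-83515999, 3’UTR) is 6162 bases long and had 504, 208 and 197 reads. Its share was 13.7%, 7.10% and 5.06%, with a relative log2 fold change of −1.18 (SE 0.20, edgeR adjusted p = 0.038). The MXD4 bin 001 (ENSG00000123933, chr4:2249159-2251190, 3’UTR) had 198, 90 and 105 reads, or 12.2%, 4.83% and 4.46% of the gene. In both genes each knockdown line was below the control. For MXD4 the relative log2 fold change was −1.39 (SE 0.22, edgeR adjusted p = 0.031), and its last 50 bases held neither hexamer.

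DEF8 and the pseudogene DUXAP9 also fell. The DEF8 bin 065 (ENSG00000140995, chr16:90034042-90034467, 3’UTR) had 120, 65 and 71 reads, or 3.39%, 1.36% and 1.11% of the gene, with a relative log2 fold change of −1.48 (SE 0.17, edgeR adjusted p = 0.038). DUXAP9 has near-identical copies, so its reads are uncertain, and it had 110, 20 and 36 reads in bin 037 (relative log2 fold change −1.88, SE 0.30, edgeR adjusted p = 0.026).

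RNF130, which encodes a RING-type ubiquitin ligase, was the 1 bin that rose at the adjusted limit. Its bin 001 (ENSG00000113269, chr5:179338651-179347426, 3’UTR and coding) lies behind a gap of 34640 bases and had 63, 85 and 106 reads. The gene total was lower in both lines, at 20388, 9342 and 10969 reads, so that the share went from 0.309% to 0.910% and 0.966%. Both lines were above the control, and the relative log2 fold change was 1.60 (SE 0.21, edgeR adjusted p = 0.038). It remained a minor end, since under 1% of the gene’s reads lay on it in every library.

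**Figure D4:**
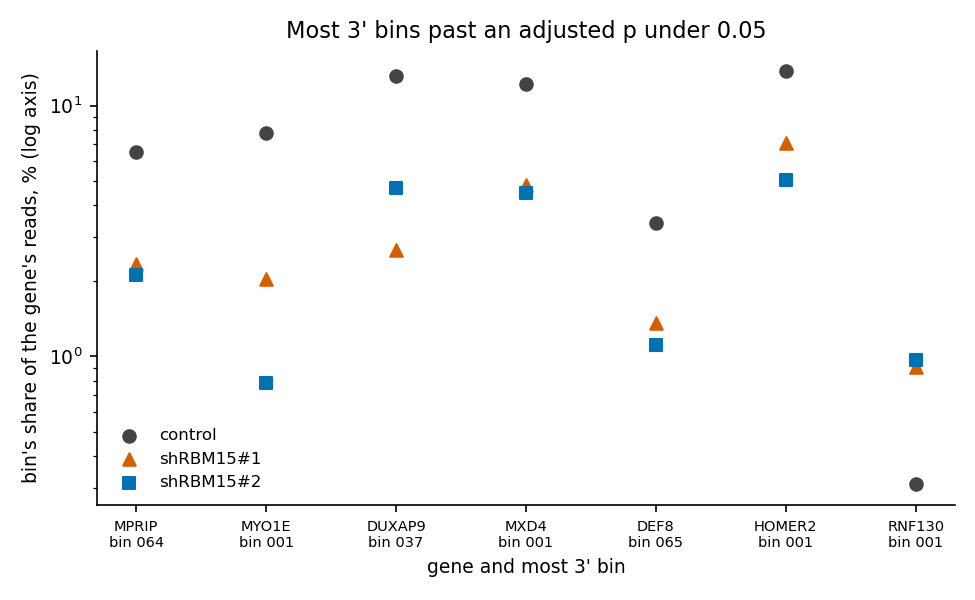
Share of the gene’s reads on the most 3’ bin, in percent on a log axis, for 7 of the 10 bins with an adjusted p under 0.05, with 1 point per library. The control (circle) lies above shRBM15#1 (triangle) and shRBM15#2 (square) in 6 bins and below both in RNF130.

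Beyond the adjusted limit, the next fall by p was in GIGYF2, which takes part in translational repression. Its bin 127 (chr2:233723338-233725285, 3’UTR) had 275, 113 and 131 reads, and its share fell from 2.85% to 1.24% and 1.21% (relative log2 fold change −1.22, SE 0.18, edgeR adjusted p = 0.060). The other rises with the smallest p were mostly minor ends with few control reads. ADSL, an enzyme of purine synthesis, had 43, 94 and 107 reads, or 0.414%, 1.27% and 1.15%, with an edgeR adjusted p of 0.103. RPF2, a ribosome assembly factor, had 149, 198 and 282 reads, or 2.96%, 6.57% and 6.28%, with an edgeR adjusted p of 0.253. ZBTB1, a zinc finger protein, had 40, 90 and 117 reads, or 3.03%, 7.01% and 6.88% (unadjusted p = 0.0017 in edgeR). Its bin overlaps 1 bin of another gene and did not pass the adjusted limit. In ADSL, RPF2 and ZBTB1, the lines were above the control and near each other.

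The other 6 of these rises rested on 4 to 15 control reads. They were in RNF213, a large ubiquitin ligase, TMEM232, APIP, an enzyme of methionine salvage, MBNL3, a regulator of splicing, IMMP2L, a subunit of a mitochondrial inner membrane peptidase, and H2BC11, a histone gene. TMEM232 had 5, 18 and 16 reads on the bin, with a relative log2 fold change of 4.09 (SE 0.73). Histone genes have near-identical copies, so that the H2BC11 counts of 15, 28 and 33 reads are uncertain. The adjusted p of these 6 ranged from 0.108 to 1.00 in edgeR.

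Among the bins with at least 1000 reads, a few are named here after their values were seen. The 3 that rose were in DNAJB11, an endoplasmic reticulum chaperone, DIDO1 and ZNF480. The DNAJB11 share rose from 8.83% to 13.0% with shRBM15#1 and 13.3% with shRBM15#2, the DIDO1 share from 9.94% to 17.4% and 17.9%, and the ZNF480 share from 14.3% to 20.3% and 21.6%. The deepest that fell were in ATF6, a sensor of endoplasmic reticulum stress, and MTURN. The ATF6 share fell from 25.1% to 17.2% and 17.7% (relative log2 fold change −0.52, unadjusted p = 0.040 in edgeR). The MTURN share fell from 31.7% to 19.0% and 22.0% (−0.63, unadjusted p = 0.014 in edgeR). For TNRC6B, a protein of miRNA-mediated silencing, the share fell from 41.6% to 30.1% and 27.3%. For UCK2, a uridine-cytidine kinase, it fell from 25.1% to 15.2% and 13.7%. None of these 7 passed the adjusted limit.

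A few genes that form 3’ ends had lower calls. Of 19 cleavage and polyadenylation factors with a most 3’ bin, 2 fell (10.5%), 0 rose and 17 were not called, where 2.23% of all most 3’ bins and 0.787% of all bins fell. DESeq2 called 2 of the 19 as lower and 0 as higher, where it called 8.44% of all most 3’ bins. With 2 calls the counts do not set these factors apart. The median relative log2 fold change of the 19 was −0.004 against −0.027 over all most 3’ bins and 0.007 over all bins. CPSF6, a subunit of cleavage factor I, was the best covered. Its bin 028 (chr12:69663720-69668138, 3’UTR) had 1673, 858 and 893 reads, or 19.8%, 11.9% and 10.1% of the gene, and both lines were below the control (relative log2 fold change −0.85, SE 0.13, edgeR adjusted p = 0.69). CSTF3, a subunit of the cleavage stimulation factor, had 66, 18 and 35 reads in bin 001 (chr11:33098734-33098996), or 2.02%, 0.567% and 0.876% (−1.46, SE 0.32, edgeR adjusted p = 0.47). This bin lies 7133 bases from the upstream bin.

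The total expression of these factors showed no call. Of 20 factors tested as genes in edgeR, 0 passed an adjusted p under 0.05, where 1.2% of all 24887 genes fell and 0.534% rose, and 2 had an unadjusted p under 0.05. DESeq2 gave 0 and 2 as well. These 2 in edgeR were SYMPK, a scaffold of the complex, at 121, 70.1 and 64.7 CPM (log2 fold change −0.84, adjusted p = 0.104), and CLP1, at 17.9, 26.9 and 37.9 CPM (0.86, adjusted p = 0.194). NUDT21, the partner of CPSF6, was at 216, 176 and 199 CPM, and CPSF6 itself at 170, 161 and 169 CPM.

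Of 16 regulators of the choice of 3’ ends, 3 fell (18.8%, against 2.23% of all most 3’ bins) and 0 rose, with a median of −0.003. In DESeq2 3 of them fell and 1 rose, where 8.44% of all most 3’ bins were called. ELAVL1, a protein that binds AU-rich elements, had 112 reads in the control and 48 in each line on bin 001 (chr19:8023463-8025800), or 2.31%, 1.13% and 0.919% of the gene (−1.18, SE 0.22, edgeR adjusted p = 0.64). The bin overlaps 2 bins of other genes. CDK13 and CDK12, kinases that act on RNA polymerase II, fell by less. The CDK13 share fell from 7.99% to 3.95% and 4.47% (−0.92, SE 0.20) and the CDK12 share from 7.63% to 5.30% and 4.95% (−0.57, SE 0.20), with an edgeR adjusted p of 1.00 for both. In all 3 genes each line was below the control, as in every most 3’ bin called as lower.

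Of 42 splicing factors 5 fell (11.9%, against 2.23% of all most 3’ bins) and 0 rose, with a median of −0.067. In DESeq2 9 of them fell and 2 rose, where 623 and 239 of all 10213 did. SRSF1, an SR protein, had 178, 99 and 121 reads on the 133 bases of bin 001 (chr17:56080721-56080853), or 0.932%, 0.384% and 0.394% of its reads (−1.26, SE 0.13, edgeR adjusted p = 0.070). SF3B3, a subunit of the U2 snRNP, had 1130, 399 and 659 reads in bin 054 (chr16:70606203-70608820), or 4.33%, 1.79% and 2.38% (−1.06, SE 0.15, edgeR adjusted p = 0.085). The others encode heterogeneous nuclear ribonucleoproteins. The share of HNRNPR fell from 0.400% to 0.168% and 0.0791% (−1.72, SE 0.37, edgeR adjusted p = 0.219). That of HNRNPU fell from 2.81% to 1.66% and 1.94% (−0.65, SE 0.17, unadjusted p = 0.011 in edgeR). That of HNRNPA1 fell from 0.252% to 0.113% and 0.130% (−1.06, SE 0.40, unadjusted p = 0.016 in edgeR). None of these splicing factors passed the adjusted limit. HNRNPA1 has near-identical pseudogenes, so its counts are uncertain, and its bin is 36 bases long.

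**Figure D5:**
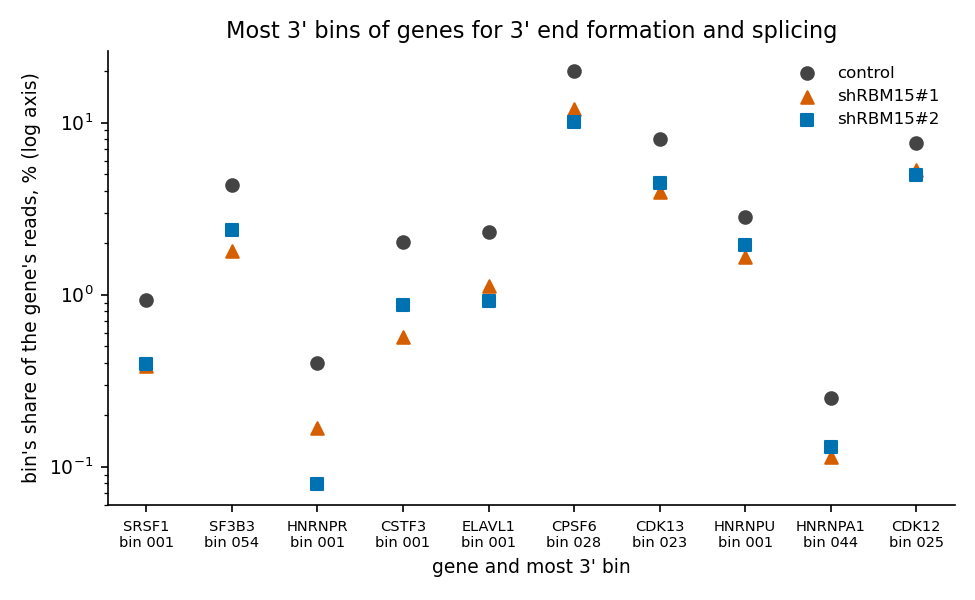
Share of the gene’s reads on the most 3’ bin, in percent on a log axis, for the 10 called genes of 3’ end formation, 3’ end choice and splicing, with 1 point per library. The control (circle) lies above both knockdown lines (triangle and square) in all 10, as in all 228 most 3’ bins called as lower. The shares range from 0.0791% in HNRNPR to 19.8% in CPSF6.

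The other gene lists held few calls. Of 40 glycolysis and TCA cycle enzymes, 0 fell and 1 rose (2.5%). It was GPI, glucose-6-phosphate isomerase, with 111, 149 and 256 reads, or 0.367%, 0.516% and 0.747% of the gene (0.78, SE 0.22, edgeR adjusted p = 1.00). In edgeR 0 were called, and 0 had an unadjusted p under 0.05, among 35 ATF4 targets, 17 erythroid-megakaryocyte regulators, 9 erythroid markers, 3 megakaryocyte markers and 1 lymphoid marker. In DESeq2 3 ATF4 targets and 1 megakaryocyte marker were called as lower, and of the regulators 1 was lower and 1 higher. Of all most 3’ bins 3.08% were called in edgeR and 8.44% in DESeq2. At these shares, lists this small would hold few or 0 calls, so the counts do not set these genes apart. As genes, 27 of 37 ATF4 targets fell at an adjusted p under 0.05 in edgeR, with a summed level of 14015, 5570 and 5758 CPM, while the median relative log2 fold change of their most 3’ bins was −0.025.

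A list of genes that the study names, mostly transcription and chromatin factors with changed exon usage, held 13 genes with a most 3’ bin. Of these 0 were called and 0 had an unadjusted p under 0.05 in edgeR. DESeq2 called 2 as lower, TLE3 and NCOR1, where it called 8.44% of all most 3’ bins. Only the most 3’ bin of each gene is considered here. Several changes that the study reports, such as the skipped exons of GATA1 and RUNX1, lie outside that bin, and these counts do not bear on them. The study also reports changes at 3’ ends after knockdown. They are a shift towards RUNX1a, which uses the 3’UTR of another exon, and a shorter 3’UTR in TAL1. For RUNX1 the study measured the ratio of isoforms by real-time PCR, and such a ratio was not computed or tested here. RUNX1, a transcription factor of megakaryocytes, had 1814, 701 and 1017 reads on bin 001 (chr21:36160098-36164051), which were 28.6%, 27.2% and 27.6% of the gene (−0.05, SE 0.25). The share of STAT5A was 17.1%, 16.3% and 16.0%, that of GATA1 8.51%, 7.80% and 7.52% and that of the chromatin protein DEK 14.1%, 13.8% and 12.8%. The libraries lay close together in these genes, with relative log2 fold changes of −0.08, −0.15 and −0.08. For HDAC4 the share was 31.0%, 23.6% and 24.2% (−0.29, SE 0.21) and for NCOR1 2.77%, 2.23% and 1.93% (−0.41, SE 0.26), so both lines were below the control without passing the limits in edgeR. The bins of TAL1 and BRD9 are 1 and 4 bases long and carry little information on the 3’UTR. CDC42 and RPTOR, which the study names but the list leaves out, were added after the values were seen and had relative log2 fold changes of 0.01 (SE 0.16) and 0.02 (SE 0.34). RBM15 also had a most 3’ bin, with 11.76%, 12.01% and 12.31% of its reads (0.04, SE 0.26, unadjusted p = 0.87 in edgeR).

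The deposited RIP-seq peaks of RBM15 were compared by position only. Of 1515 peaks, 443 were annotated to a 3’UTR. A peak of that kind lay within 1 kb of 361 most 3’ bins, of which 8 fell and 2 rose (2.77%), against 220 and 85 (3.10%) of the 9852 others. The median reads of these groups were 929 and 250. Among the 187 bins that overlapped such a peak, 0 were called and 0 had an unadjusted p under 0.05 in edgeR. Their median reads were 1937, and from 1000 reads edgeR called 1.75% of most 3’ bins and 0.600% of all bins. DESeq2 called 4 of the 187 as lower and 5 as higher, and 17 and 9 of the 361. Of all 10213 most 3’ bins it called 623 as lower and 239 as higher, and of all bins 2.13% and 2.07%. These differences were not tested. The median relative log2 fold change of the 187 was 0.017. Of the bins near a peak, those with the smallest p included SF3B3, PPIA, LSM4 and GPI. PPIA, cyclophilin A, went from 3.39% to 1.53% and 2.13% (−0.90, SE 0.17, edgeR adjusted p = 0.49). LSM4, an Sm-like protein, went from 0.560% to 0.180% and 0.226% (−1.45, SE 0.26, unadjusted p = 0.0018 in edgeR) and did not pass the adjusted limit. PPIA has many near-identical pseudogenes, so its counts are uncertain.

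Bins on either side of the limits used for the choice had similar medians. The 568 bins with 30 to 35 reads, just inside the minimum, had a median log2 share ratio of 0.087 with shRBM15#1 and −0.024 with shRBM15#2. The 650 bins with 24 to 29 reads that lay 3’ of a chosen bin had 0.081 and −0.036, so that on both sides the medians of the lines differed in sign. In the 452 genes with 5 bins the medians were −0.007 and −0.009, and in the 521 genes with 4 bins, which were not included, −0.016 and −0.012.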

How the data were processed

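RNA-seq data of MEG-01 cells were used from 1 control library and 2 RBM15 knockdown lines (shRBM15#1 and shRBM15#2). Unstranded reads had been aligned to GRCh37 by the authors with STAR. Raw counts for each exon bin of Ensembl gene models were deposited, in 1 file per library and in a DEXSeq table. That table also holds the authors’ log2 fold changes, p-values and adjusted p-values, which were not used. Its counts equalled those of the count files in every bin compared, and 809 wrapped lines were left out. The submitters’ processing notes name HTSeq 0.6.0 without its role, and how a read over several bins was counted is not given here. Lines that name no gene held 23.2%, 32.0% and 23.5% of the reads and were left out.

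The strand column holds 0 in every bin, so strand, symbols and annotation came from a GENCODE annotation on GRCh37. It is newer than the gene models and matched 54322 of 62238 genes. Usage is the bin’s share of the gene’s reads, and 0.5 was added to each count for log2 ratios. Relative changes were tested with glmQLFit and diffSpliceDGE in edgeR 4.0.16 (R 4.3.3, TMM) over 234192 bins of 12893 genes, with Benjamini-Hochberg adjustment, and gene totals with glmQLFTest over 24887 genes with at least 30 reads. SE is the change divided by the root of its F statistic. In some bins the p-value was larger than the change and SE alone would give, so that the SE can understate the uncertainty there. CPSF6 is an example, with a change of −0.85, SE 0.13 and an unadjusted p of 0.00076 in edgeR. DESeq2 1.42.0, size factors, other minimums and other choices of bins served as alternatives. The scripts were tested on simulated data. With 1 control, the p-values measure only the spread between the 2 knockdown lines, and the counts give precision for counting error only.

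The bins, lists and tests were chosen with earlier results of these data known. Genes were named if their bin passed the adjusted limit, was among the 10 smallest p called in each direction, was called in 1 of 10 gene lists, belonged to a list of genes the study names (macroH2A taken as MACROH2A1), or was among the 5 smallest p near a 3’UTR peak. Bins of 3 genes named by this rule are not reported here. GP1BB and TAF9 were not matched. From the RIP-seq only the position and annotation of 1515 peaks were used, since the antibody labels of its libraries conflict with the authors’ comparison. Its counts, fold changes and p-values were not used.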

Additional observations from a re-analysis of the deposited data

Results flagged for a closer look

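The share of reads that fell in no bin lies outside the counts compared in the report. Of all reads with shRBM15#1, 30.36% were of this kind, compared with 21.91% with shRBM15#2 and 21.63% in the control. Both knockdown libraries were above the control, shRBM15#2 by little. The part of these reads in the usage of the most 3’ bins was not tested, and the median log2 share ratio was −0.034 with shRBM15#1 and −0.032 with shRBM15#2.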

How the results depend on the processing

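No paired analysis was possible because there was 1 control library. Called most 3’ bins numbered 315 (228 lower, 87 higher, 10 at the adjusted limit). With bins of at least 300 reads there were 104 (92 lower, 12 higher), among 3969 bins, and 88.5% of them were lower. With the DEXSeq-type model in DESeq2 there were 862 (623 lower, 239 higher, 121 at the adjusted limit), which held 300 of the 315. Taking the last of all bins gave 199 (148 lower, 51 higher, 6 adjusted) among 5329 bins. Including bins with at least 1 read left 5 at the adjusted limit and 285 of the 315 calls. Of the alternatives chosen after seeing the data, bins at an annotated transcript end left 6 at the adjusted limit, genes whose total changed by at most 0.5 on the log2 scale left 6 and 47 that rose, and leaving out bins that overlap another gene gave 280 calls. Size factors gave 316 calls, and genes with at least 2 bins 342. No gene model joined several genes, so that alternative changed nothing.

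The median log2 share ratio of −0.0354 was −0.0316 without shRBM15#1 and −0.0340 without shRBM15#2. It was −0.0317 with only bins past the minimum in the denominator and −0.0399 for the last of all bins. Of 33 named bins with a call, 33 kept it with size factors and with at least 1 read, and 32 with DESeq2, where GPI lost it at 0.77. With at least 1 read the uncalled ZNF160 turned from 0.0019 to −0.0084. TLE3 (−0.79) and NCOR1 (−0.43) were called in DESeq2. Cleavage factors called at the gene level numbered 0 in every alternative. By depth, bins with 30 to 99 reads were called in 48 genes as lower and 62 as higher, and those from 1000 reads in 37 and 3. Among all bins with 30 to 99 reads 1.16% fell and 1.15% rose, and from 1000 reads 0.401% and 0.199%.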
